A study of Mus musculus with 6 samples.

Results

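This account covers 10 genes of the tumour necrosis factor (TNF) receptor and ligand families in T helper 2 (Th2) cells. They were taken by symbol from the deposited table, and all 10 had a row among its 14868 genes. The receptors were Tnfrsf8 (CD30), Tnfrsf4 (OX40), Tnfrsf9 (4-1BB), Tnfrsf18 (GITR), Tnfrsf1a (TNFR1), Tnfrsf1b (TNFR2), Cd27 and Fas, and the ligands were Tnfsf8 (CD30 ligand) and Tnfsf11 (RANKL). The libraries came from naïve CD4+ T cells of WT mice and of Ikzf4-/- mice, both on the C57BL/6J background. Ikzf4 encodes Eos, a zinc finger transcription factor of the Ikaros family. Cells of both genotypes received 10 µg/mL anti-Ifng and 10 ng/mL IL-4, on plates coated with anti-CD3 (5 µg/mL) and anti-CD28 (2 µg/mL), and were taken at 72 h. Each genotype had 3 libraries, numbered as in the labels. The sources used here do not say how the Ikzf4 allele was made or whether the libraries came from separate mice or cultures, so the p-values measure the spread between these libraries, which may be technical.

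TNF receptor family proteins bind trimeric ligands of the TNF family through cysteine-rich extracellular domains. OX40, 4-1BB, GITR, CD27, CD30 and TNFR2 lack a death domain and recruit TRAF adaptors, which feed NF-kB signalling and support survival and expansion of activated T cells. TNFR1 and Fas carry a death domain and can also start cell death. CD30 is induced by T cell activation and has long been associated with Th2 cells, and its ligand is made by activated T cells as well.

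The values are normalized read counts, meaning reads of a library divided by 1 scaling factor, with no correction for gene length. From the size of their smallest steps, the values of all genes in the deposited table stand for an estimated 34701390 to 40604346 reads per library. Reads outside these genes are not counted in this. The lowest read number behind any member value was 135, for Fas, where counting alone gives a relative error of 8.61%. Ikzf4 stood at 483 to 756 in the WT and at 10.5 to 38.2 in the Ikzf4-/- libraries, so each library matched its label. All 6 T cell markers examined had values and none was called, with log2 fold changes below 0 for 3 and above 0 for 3. Cd3e had means of 7946 in WT and 8427 in Ikzf4-/- cells, and Cd3g had means of 12466 and 11175. Of the 7 myeloid markers 5 (Adgre1, Cd14, Csf1r, Itgam and Lyz2) had no row, and the others summed to 66.0 to 109 in WT and 75.3 to 103 in Ikzf4-/- libraries. On the first principal component, with 40.2% of the variance, WT replicate 1 lay at -41.3, WT replicates 2 and 3 at -12.5 and -5.26, and the Ikzf4-/- libraries at 11.1 to 30.8, so WT replicate 1 stood apart. It was also the WT library farthest from the Ikzf4-/- mean for 8 of the 10 members, all but Tnfrsf9 and Fas, and for 49.5% of all genes tested. The cause was not tested.

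In the comparison of Ikzf4-/- with WT cells, a gene is said to be called when limma gave an adjusted p under 0.05 over all 14864 genes tested. Tnfrsf8 and Tnfrsf18 were called, and both fell. In bulk RNA, fewer cells of a type and less RNA per cell cannot be told apart. These 2 of 10 members stand beside 1.77% of all genes called in either direction, 1.2% called lower and 0.572% called higher, and the members were chosen with results of these data known. For 4 members the libraries of the 2 genotypes were fully separated: Tnfrsf8, Tnfrsf18 and Tnfrsf9 were lower and Tnfsf11 was higher in every Ikzf4-/- library, against 23.1% of all genes without overlap. In the authors' deposited table the number of members with an adjusted p under 0.05 was 3 of 10, namely these 2 and Tnfsf11, beside 6.34% of the genes with an adjusted p there. The fitted log2 fold change was below 0 for 5 members and above 0 for 5, with a median of -0.06, and the median of all genes tested was 0.00479.

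**Figure D1:**
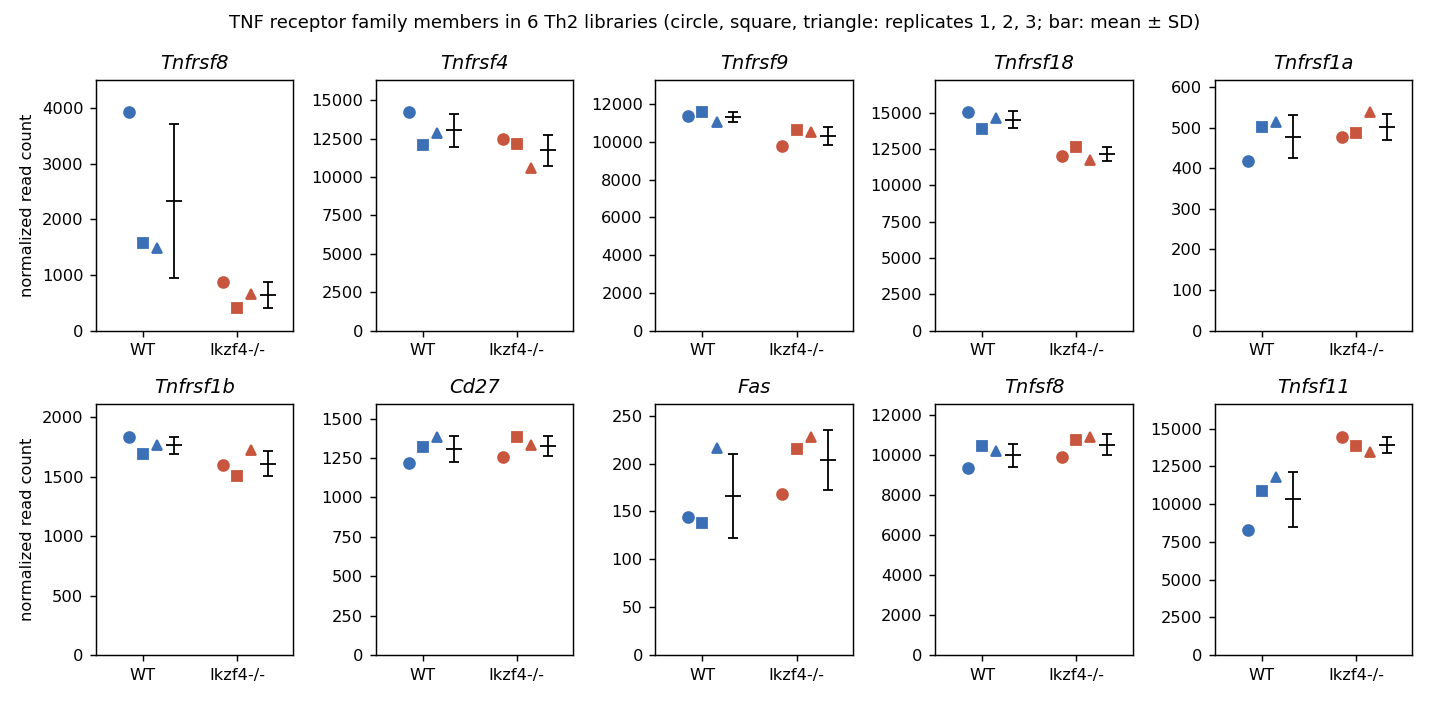
Normalized read count (vertical axis, from 0) of each of the 10 members in the 3 WT (blue) and 3 Ikzf4-/- (red) libraries, with circle, square and triangle for replicates 1, 2 and 3 and a black bar for the mean ± SD. Tnfrsf8 in WT replicate 1, at 3924, lies far above WT replicates 2 and 3, and the genotypes overlap for 6 of the 10 members.

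Promoter windows are shown for the 3 members that the results turn on. The RefSeq promoter table (GRCm38.p6) held 27025 gene symbols and matched all 10 members, with 11 entries since Tnfrsf9 had 2, each from 250 bases before to 50 after the start. Shown 5′ to 3′ on the strand of the gene are the windows of Tnfrsf8 (chr4:145315115-145315414, minus strand) and Tnfrsf18 (chr4:156026072-156026371, plus strand), the members that fell, and of Tnfsf11 (chr14:78307994-78308293, minus strand), the member whose values were higher in every Ikzf4-/- library. Capitals mark GGGAA, the core bound by Ikaros-family proteins, and the AP-1 site TGANTCA, each on either strand.
Tnfrsf8: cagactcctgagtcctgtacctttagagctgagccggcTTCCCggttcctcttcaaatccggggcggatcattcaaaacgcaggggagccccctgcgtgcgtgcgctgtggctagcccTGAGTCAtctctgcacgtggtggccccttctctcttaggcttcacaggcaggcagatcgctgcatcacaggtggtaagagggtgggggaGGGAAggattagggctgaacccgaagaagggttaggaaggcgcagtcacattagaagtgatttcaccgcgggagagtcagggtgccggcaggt
Tnfrsf18: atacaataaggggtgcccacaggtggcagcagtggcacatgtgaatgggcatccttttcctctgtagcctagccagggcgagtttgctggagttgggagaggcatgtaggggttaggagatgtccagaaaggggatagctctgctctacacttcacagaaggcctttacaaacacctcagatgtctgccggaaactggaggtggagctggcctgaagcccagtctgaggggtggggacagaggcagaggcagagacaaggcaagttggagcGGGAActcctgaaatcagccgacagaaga
Tnfsf11: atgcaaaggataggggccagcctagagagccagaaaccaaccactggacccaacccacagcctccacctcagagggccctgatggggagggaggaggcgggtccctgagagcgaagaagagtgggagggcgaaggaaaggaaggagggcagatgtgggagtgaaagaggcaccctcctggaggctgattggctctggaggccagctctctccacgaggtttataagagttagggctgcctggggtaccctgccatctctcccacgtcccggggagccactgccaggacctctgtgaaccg

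The Tnfrsf8 window held GGGAA or its complement beginning at positions -212 and -43 from the start base, counted as 0, and an AP-1 site at -132. It also held a match to the NF-kB consensus at -168, and none of these matches shared bases. The Tnfrsf18 window held GGGAA at 21, inside the transcribed part, and no AP-1 site, and the Tnfsf11 window held neither. GGGAA lay in 8 of the 11 member windows and in 62.7% of the 32851 windows of this length in the table. The AP-1 site lay in 3 (Tnfrsf8, Fas and the second Tnfrsf9 window) against 7.81%, the NF-kB consensus in 2 (Tnfrsf8 and the second Tnfrsf9 window) against 4.51%, and GATAA, the core bound by GATA factors, in 2 (Tnfrsf4 and the second Tnfrsf9 window) against 25.4%. Both strands were searched, and GGGAA can share bases with the NF-kB consensus, as it did in the second Tnfrsf9 window. A match says only that these letters are present.

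Tnfrsf8, which encodes CD30 (ENSMUSG00000028602, GRCm38 chromosome 4, 145267137 to 145315164, minus strand), had the largest fitted change of the 10 members. In the order of their replicate numbers, its normalized read counts were 3924, 1571 and 1481 for the WT libraries and 870, 408 and 651 for the Ikzf4-/- libraries. The groups did not overlap, but WT replicate 1 stood alone and supplied 56.3% of the summed WT value. The lowest WT library was 1.70-fold above the highest Ikzf4-/- library. The mean was 2325 ± 1385 in WT and 643 ± 231 in Ikzf4-/- cells (SD, n = 3 each). On the log2 scale the fitted change was -1.77 (SE 0.34), with a 95% interval from -2.52 to -1.01 and an adjusted p of 0.0355 in limma.

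Without WT replicate 1 the WT mean of Tnfrsf8 was 1526, which was 2.37-fold the Ikzf4-/- mean, and the fitted log2 fold change was -1.31 (adjusted p = 0.00983). The gene was thus still called on the other 5 libraries, with a smaller change. It was also called without WT replicate 3 (adjusted p = 0.0192), and its call was lost without WT replicate 2 (0.0615) and without Ikzf4-/- replicate 1 (0.0619), 2 (0.106) or 3 (0.115). Tnfrsf8 varied within both genotypes: its coefficient of variation was 59.6% in WT and 35.9% in Ikzf4-/- libraries. Among the 8109 genes with a mean of at least 500, the SD of its log2 values was above that of 99.8% of genes in WT and 99.9% in Ikzf4-/- libraries. The lowest value rested on 390 reads, for which counting alone gives a relative error of 5.06%.

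**Figure D2:**
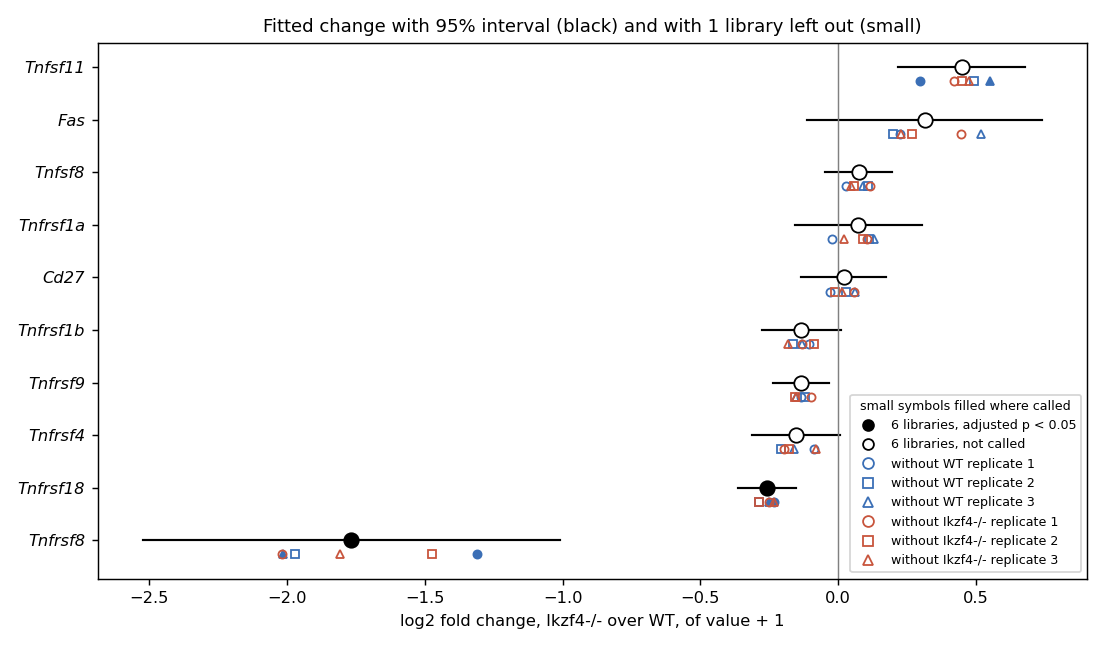
Log2 fold change of Ikzf4-/- over WT on the value + 1 scale (horizontal axis) for each member, with its 95% interval in black and, as small symbols below, the 6 fits that each left out 1 library, filled where called. The estimate for Tnfrsf8 runs from -2.02 to -1.31 across these fits, and those of Tnfrsf1a and Cd27 lie on both sides of 0.

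The 3 genes whose log2 values were most like those of Tnfrsf8 over the 6 libraries, out of 11600 genes with a mean of at least 50, were Bscl2, Socs2 and Mt2. Bscl2, the gene of the lipid droplet protein seipin, had a Pearson r of 0.9997 and a Spearman rho of 1.00. Its normalized read count had means of 1641 ± 129 in WT and 1379 ± 70.6 in Ikzf4-/- cells (SD, n = 3 each; log2 fold change -0.25, adjusted p = 0.10 in limma), so it had the pattern of Tnfrsf8 at a far smaller amplitude. In the authors' deposited table its adjusted p was 0.0431, and with the replicate block in limma it was 0.0410. Socs2, a feedback inhibitor of cytokine signalling (r = 0.998, rho = 1.00), fell, with means of 2850 ± 659 in WT and 1708 ± 213 in Ikzf4-/- cells (SD, n = 3 each; log2 fold change -0.72, adjusted p = 0.0331 in limma), and was called in 2 of the 6 fits that each left out 1 library, those without WT replicate 1 and without WT replicate 3. Mt2, which encodes a metallothionein (r = 0.998, rho = 1.00), was at 424, 267 and 247 in WT and 195, 137 and 164 in Ikzf4-/- libraries (log2 fold change -0.89, adjusted p = 0.0583 in limma). Mt2 was called with the replicate block (adjusted p = 0.00874), with array weights (0.0315) and without WT replicate 3 (0.0320). It was called in none of the other 5 fits without 1 library (0.0836 to 0.175). In the authors' deposited table its adjusted p was 0.000654. All share the same 6 libraries and the genotype difference, and such r values are a description of so few points. Among the members, Tnfrsf1b (r = 0.838) and Tnfrsf18 (r = 0.817) were most like Tnfrsf8, and Tnfsf11 (r = -0.920) was least like it.

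**Figure D3:**
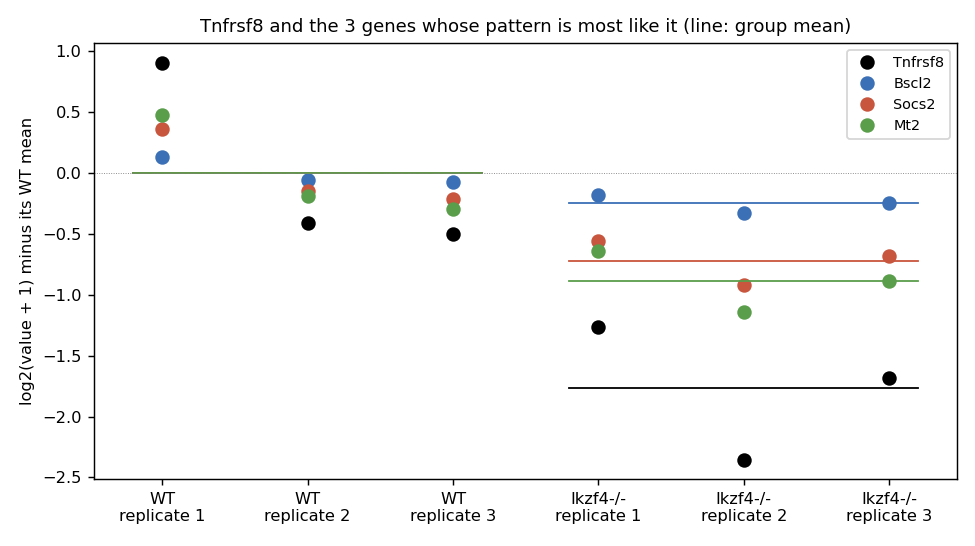
Log2(value + 1) minus the WT mean of the same gene (vertical axis) in each of the 6 libraries for Tnfrsf8, Bscl2, Socs2 and Mt2, with lines for group means. In all 4 genes WT replicate 1 is the highest library and Ikzf4-/- replicate 2 the lowest, and the amplitude is widest for Tnfrsf8 and narrowest for Bscl2.

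The gene of the CD30 ligand was not called. Tnfsf8 (ENSMUSG00000028362, chromosome 4, 63831308 to 63861347) stood at 9358, 10461 and 10216 in WT and 9934, 10756 and 10926 in Ikzf4-/- libraries. These values overlapped, the log2 fold change was 0.07 with a 95% interval from -0.05 to 0.20, and the limma adjusted p was 0.529. The interval allows a change from -3.26% to 14.6%.

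Tnfrsf18 encodes GITR, a costimulatory receptor also known as a marker of regulatory T cells (ENSMUSG00000041954, chromosome 4, 156026164 to 156028895 on the plus strand). Its normalized read count was 15026, 13881 and 14630 in WT and 12007, 12672 and 11750 in Ikzf4-/- libraries. The groups did not overlap, and replicates within a genotype lay close together. The means were 14513 ± 581 and 12143 ± 476 (SD, n = 3 each). The log2 fold change was -0.26 (SE 0.05, adjusted p = 0.0306 in limma), which is a change of -16.3% with a 95% interval from -22.2% to -9.97%. It was called without WT replicate 1 (adjusted p = 0.0365) and without WT replicate 3 (0.0375), but not without WT replicate 2 (0.0516) or Ikzf4-/- replicate 1 (0.0903), 2 (0.0505) or 3 (0.121). The log2 fold change lay between -0.29 and -0.23 in these 6 fits. The antisense gene Gm16008 shares 414 exonic bases with Tnfrsf18, and since the use of strand is not given in the sources used here, reads of the pair may not be told apart. Gm16008 was at 216, 238 and 265 in WT and 180, 207 and 150 in Ikzf4-/- libraries (limma adjusted p = 0.171), and its part in the Tnfrsf18 value was not tested.

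Tnfrsf4, the gene of OX40, lies 9551 bp from Tnfrsf18 (chromosome 4, 156013843 to 156016612 on the plus strand). Its values were 14213, 12077 and 12851 in WT and 12457, 12164 and 10606 in Ikzf4-/- libraries. They overlapped, and the gene was not called (log2 fold change -0.15, 95% interval from -0.31 to 0.01, limma adjusted p = 0.296). Of 27 tested genes within 250 kb of Tnfrsf18, 2 were called, Ube2j2 and C1qtnf12, both lower and both named after their values were seen, beside 1.77% of all genes called and 1.2% called lower. These 2 were not refitted without single libraries. Near Tnfrsf8 the same window held 3 tested genes, with log2 fold changes from -0.13 to 0.07 and none called. One of these was Tnfrsf1b, 20266 bp away.

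Tnfrsf9, the gene of the costimulator 4-1BB (chromosome 4, 150914562 to 150946102), had values of 11362, 11563 and 11048 in WT and 9785, 10615 and 10539 in Ikzf4-/- libraries. Every Ikzf4-/- library was below every WT library, yet the difference was small (log2 fold change -0.14, SE 0.05) and not called (limma adjusted p = 0.156). It was not called in any of the 6 fits that left out 1 library either, with adjusted p-values from 0.138 to 0.365.

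The receptors of TNF itself were not called. Tnfrsf1b, whose product TNFR2 has no death domain (chromosome 4, 145213463 to 145246870), was at 1836, 1690 and 1770 in WT and 1602, 1509 and 1722 in Ikzf4-/- libraries (log2 fold change -0.13, 95% interval from -0.28 to 0.01, limma adjusted p = 0.313). Tnfrsf1a, whose product TNFR1 carries one (chromosome 6, 125349362 to 125362484), was at 417, 501 and 514 in WT and 478, 488 and 537 in Ikzf4-/- libraries (log2 fold change 0.07, 95% interval from -0.16 to 0.30, adjusted p = 0.766). Both overlapped between genotypes, and the sign of the Tnfrsf1a estimate turned without WT replicate 1, to -0.02.

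Cd27, whose product is present on naïve T cells and binds CD70 (chromosome 6, 125232622 to 125237010), was at 1217, 1321 and 1385 in WT and 1256, 1384 and 1334 in Ikzf4-/- libraries. The ranges nearly coincided, and the log2 fold change was 0.02 (95% interval from -0.13 to 0.17, adjusted p = 0.916 in limma). Its sign turned without WT replicate 1 (-0.03) and without Ikzf4-/- replicate 2 (-0.01). Fas, the death receptor that limits activated T cells (chromosome 19, 34290666 to 34327772), was at 144, 138 and 216 in WT and 168, 216 and 228 in Ikzf4-/- libraries. Its values overlapped, and its interval was the widest after that of Tnfrsf8, from -0.11 to 0.74 around an estimate of 0.31 on the log2 scale (adjusted p = 0.439 in limma), or from -7.65% to 67.1%.

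Tnfsf11 encodes RANKL, the ligand known for driving osteoclast formation and also made by activated T cells (ENSMUSG00000022015, chromosome 14, 78277445 to 78308043). Its normalized read count was 8274, 10880 and 11798 in WT and 14462, 13865 and 13429 in Ikzf4-/- libraries. All 3 Ikzf4-/- libraries were above all WT libraries, and WT replicate 1 was the lowest. The means were 10317 ± 1829 and 13919 ± 519 (SD, n = 3 each). The log2 fold change was 0.45 (SE 0.10, 95% interval from 0.22 to 0.68), but the adjusted p of 0.0587 in limma missed the threshold. In the authors' deposited table its adjusted p was 0.000271 and the log2 fold change 0.43. It was called without WT replicate 1 (log2 fold change 0.30, adjusted p = 0.0149), where the remaining WT libraries lay closer together, and without WT replicate 3 (0.55, 0.0169). It was not called without WT replicate 2 (adjusted p = 0.0909) or Ikzf4-/- replicate 1 (0.148), 2 (0.156) or 3 (0.157). With limma array weights the adjusted p was 0.0294.

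Since longer transcripts give more reads, levels of different genes are compared only per kilobase of merged exons. In WT cells the order by mean normalized read count per kilobase was Tnfrsf4 (9558), Tnfrsf18 (9523), Tnfsf11 (4614), Tnfrsf9 (4160), Tnfsf8 (2630), Tnfrsf8 (672), Cd27 (562), Tnfrsf1b (462), Tnfrsf1a (184) and Fas (80.6). Library values of neighbours in this order overlapped for Tnfrsf4 and Tnfrsf18, for Tnfsf11 and Tnfrsf9, and for Tnfrsf8 and Cd27. In Ikzf4-/- cells Tnfrsf8 was at 186 ± 66.7 per kilobase (SD, n = 3), the ninth place, and overlapped with Tnfrsf1a at 193 ± 12.3, while Tnfsf11 at 6225 ± 232 no longer overlapped with Tnfrsf9 at 3789 ± 168. The other 9 members kept their order among themselves. Both ligands thus stood above CD30, CD27, both TNF receptors and Fas in each library. Dividing by the longest transcript swapped 3 pairs of neighbours in the WT order, each of which overlapped, and none in the Ikzf4-/- order.

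**Figure D4:**
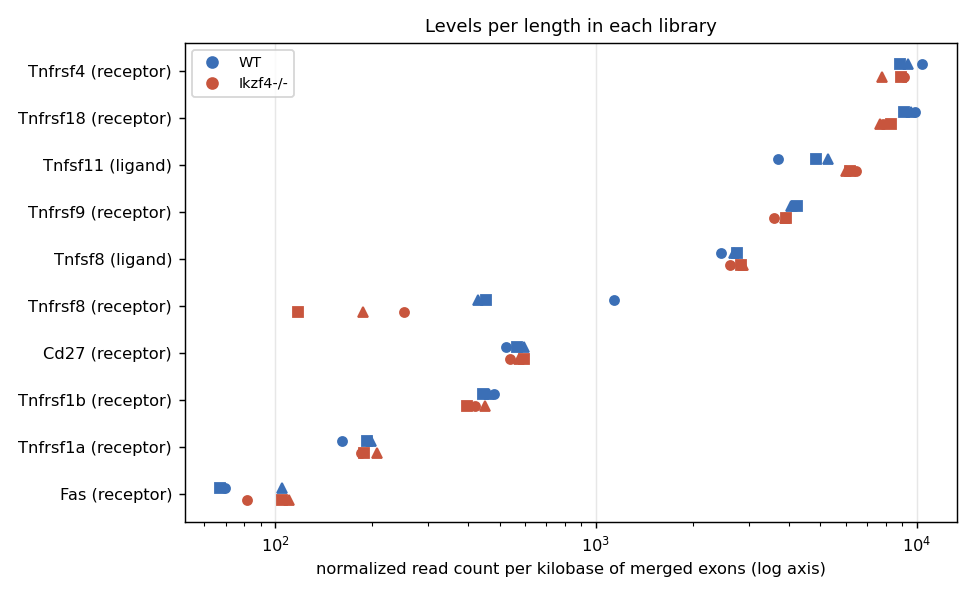
Normalized read count per kilobase of merged exons (horizontal log axis) of each member in each WT (blue) and Ikzf4-/- (red) library, ordered by WT mean, with circle, square and triangle for replicates 1, 2 and 3. The 10 members span from 80.6 for Fas to 9558 for Tnfrsf4 in WT means, and Tnfrsf8 is the only member whose place changes by more than 1 between genotypes.

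The partners of the members were examined next. Tnfsf18 (GITR ligand) and Tnfrsf11a (RANK, the receptor of RANKL) were without a row and are not analysed here. Tnfsf4, the OX40 ligand, was at 1816, 1596 and 1923 in WT and 1406, 1379 and 1617 in Ikzf4-/- libraries (log2 fold change -0.28, limma adjusted p = 0.118). Its values overlapped. In the authors' deposited table its adjusted p was 0.0396, and with the replicate block in limma it was 0.0294. Cd70, the CD27 ligand, was at 60.7, 105 and 153 in WT and 200.7, 134 and 168 in Ikzf4-/- libraries (log2 fold change 0.73, limma adjusted p = 0.221). Fasl (log2 fold change 0.23), Tnfsf9 (0.07), Tnf (0.15) and Lta (0.02) were not called, with limma adjusted p-values of 0.404, 0.883, 0.857 and 0.943. Tnf varied widely within each genotype, from 976 to 2441 in WT and from 1177 to 2559 in Ikzf4-/- libraries. Tnfrsf11b, which encodes the RANKL decoy receptor osteoprotegerin, was at 2.13 to 16.5 in WT and 8.38 to 14.1 in Ikzf4-/- libraries.

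The wider pathway lists are set beside the 1.77% of all genes called. Of 20 further TNF receptor family genes 15 were tested and 0 were called by limma (median log2 fold change -0.07), and of 16 further ligand genes 11 were tested and 0 were called (median 0.07). Beside 23.1% of all genes without overlap, 4 of the 15 tested receptor genes were higher in every Ikzf4-/- library and 1 was lower. Of the 11 tested ligand genes, 1 was higher and 2 were lower in this way. Tnfrsf10b had means of 560 in WT and 748 in Ikzf4-/- cells (limma adjusted p = 0.129, and 0.0340 in the authors' deposited table). Ltb had means of 3242 and 2682 (0.0862 and 0.0148). Some receptors at low counts also had wide differences without a call. Eda2r, the receptor of an ectodysplasin isoform, was at 10.6, 9.88 and 11.6 in WT and 34.3, 20.9 and 48.2 in Ikzf4-/- libraries (limma adjusted p = 0.0696). Ltbr, the lymphotoxin beta receptor, had means of 14.3 and 7.84 (adjusted p = 0.421). All of these genes were named after their values were seen. All 21 adaptor and receptor-proximal genes were tested and 1 was called, Otulin, whose product removes linear ubiquitin chains from signalling complexes. Otulin had means of 2510 ± 322 in WT and 1851 ± 118 in Ikzf4-/- cells (SD, n = 3 each), and its log2 fold change was -0.43 (adjusted p = 0.0379 in limma), with 2883, 2327 and 2321 in WT and 1907, 1716 and 1932 in Ikzf4-/- libraries. The TRAF genes Traf1 to Traf6 had log2 fold changes from -0.17 (Traf4) to 0.11 (Traf5), none of them called. Of the 21 genes, 4 were lower and 2 were higher in every Ikzf4-/- library. Among these were Ripk1 (log2 fold change -0.22) and Birc2 (0.24), both named after their values were seen. Their limma adjusted p-values were 0.0802 and 0.0824, and in the authors' deposited table each had 0.0474.

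All 16 NF-kB genes were tested and 2 were called, in opposite directions, with a list median of 0.07. Of the 16 log2 fold changes, 12 were above 0 and 4 were below. Beside 23.1% of all genes without overlap, 6 of the 16 were higher and 2 were lower in every Ikzf4-/- library. Map3k7, named after its values were seen, had means of 3192 in WT and 3694 in Ikzf4-/- cells. Its adjusted p was 0.0863 in limma and 0.0326 in the authors' deposited table. Rel, which encodes the NF-kB subunit c-Rel, rose from 2951, 3991 and 4106 in WT to 5441, 5249 and 5736 in Ikzf4-/- libraries (log2 fold change 0.59, adjusted p = 0.0281 in limma). Bcl3, whose product is an atypical inhibitor-of-NF-kB family protein that binds p50 and p52, fell from 1110, 621 and 550 to 386, 333 and 358 (log2 fold change -1.01, SE 0.21, limma adjusted p = 0.0436). As in Tnfrsf8, the Bcl3 value of WT replicate 1 stood far above the other WT libraries, and without it the log2 fold change was -0.70 (adjusted p = 0.00852). Of the 6 fits that each left out 1 library, Rel was called in 3, those without a WT library, and Bcl3 and Otulin in 2 each, those without WT replicate 1 or 3. Leaving out Ikzf4-/- replicate 3 gave adjusted p-values of 0.111 for Rel, 0.140 for Bcl3 and 0.104 for Otulin. The genes of the other subunits, Nfkb1 (log2 fold change 0.15), Nfkb2 (0.10), Rela (-0.07) and Relb (0.11), were not called, with limma adjusted p-values of 0.115, 0.378, 0.467 and 0.301. Nfkb1 and Relb were higher and Rela was lower in every Ikzf4-/- library, while the Nfkb2 values overlapped.

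**Figure D5:**
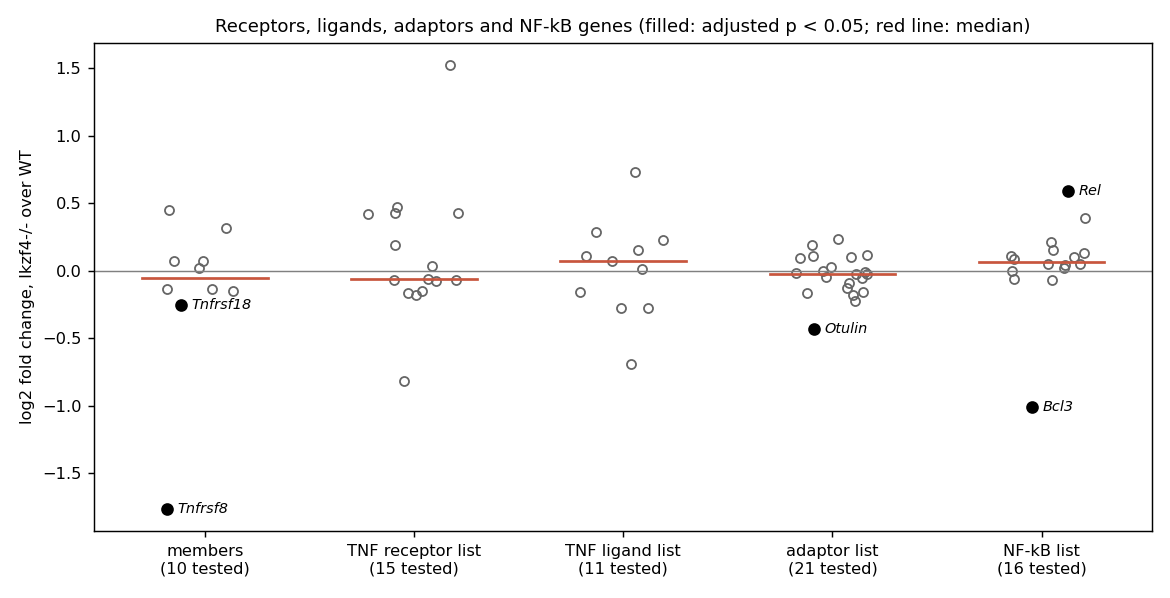
Log2 fold change of Ikzf4-/- over WT (vertical axis) of each tested gene among the members and the 4 pathway lists, filled where the adjusted p was under 0.05, with a red line at the list median. Called genes are Tnfrsf8 and Tnfrsf18 among the members, Otulin among the adaptors, and Rel and Bcl3 among the NF-kB genes, and each list median lies close to 0.

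GITR, OX40 and CD30 also mark subsets of activated and regulatory T cells. All 6 Treg markers had a row and 0 were called by limma, with a summed normalized read count of 7812 to 10007 in WT and 7521 to 8568 in Ikzf4-/- libraries. Their log2 fold changes were below 0 for 3 and above 0 for 3. Nrp1 had the largest means, 5430 in WT and 5543 in Ikzf4-/- cells. Ctla4 was at 4584, 2652 and 2350 in WT and 2417, 2193 and 1777 in Ikzf4-/- libraries (log2 fold change -0.53, limma adjusted p = 0.197). Foxp3, the defining factor of regulatory T cells, was at 36.2, 97.0 and 42.7 in WT and 43.4, 31.4 and 48.2 in Ikzf4-/- libraries. All 4 Th2 markers had lower means in Ikzf4-/- cells, and Il4 and Il13 were called lower. Il5 was lower in every Ikzf4-/- library but not called (log2 fold change -1.24, adjusted p = 0.0529 in limma and 0.00209 in the authors' deposited table). Gata3 overlapped and was not called (0.146 and 0.0386). The summed values were 11978 to 13163 in WT and 8982 to 10313 in Ikzf4-/- libraries and did not overlap. Gata3 was the largest part of these sums, with means of 8495 and 7167. Among the 6 naïve T cell markers 0 were called, with sums of 9981 to 11705 in WT and 9733 to 10710 in Ikzf4-/- libraries. Klrb1c and Ncr1 had no row, and the other 4 of 6 CD8 and NK cell markers summed to 402 to 707 in WT and 443 to 694 in Ikzf4-/- libraries, and Cd8a ranged from 57.5 to 208 and from 33.3 to 161. The part of any of these in the changes of Tnfrsf8 and Tnfrsf18 was not tested.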

How the data were processed

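Total RNA of Th2-cultured cells, in 3 WT and 3 Ikzf4-/- libraries, was sequenced by a service company, per the labels' protocols. The authors deposited 1 table with a never-negative signal per gene and library, read here as normalized counts because in every library 100% of them were multiples of a library-specific step (within 0.1 of a whole number), with size factors from 0.939 to 1.11. Its log2 fold changes, p-values and adjusted p-values are the authors' deposited comparison. Per the submitters' processing notes, Trimmomatic 0.36, STAR 2.5.2b and DESeq2 were used and GRCm38 is named. The counting tool, its use of strand and the annotation are not given in the sources used here. No count test was run, and the read numbers stated are estimates from that step. In Ikzf4-/- replicates 1 and 3 the step was close to 1, at 1.009 and 1.005.

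The scale used was log2(value + 1). After a filter on the mean over libraries (10 or more), 14864 of 14868 genes remained. Genotype was fitted across all genes with limma 3.58.1 in R 4.3.3 with a variance trend, two-sided, adjusted by Benjamini-Hochberg. Fold changes on this scale understate those of low genes. The procedure was tested on simulated data, where the share of false calls among all calls was above the nominal rate. Positions and merged exon lengths come from GENCODE M21, matched by Ensembl identifier. The rule for named genes took the members, Ikzf4, called genes of the pathway lists, known partners of members, and the 3 genes most like Tnfrsf8. Markers, overlapping or neighbouring genes and uncalled list genes are named outside it. Of these, Gm16008 alone was refitted under the alternatives. Members and lists were chosen with earlier results of these data known. The alternatives were other pseudocounts, filters and scalings, a replicate block, array weights, leaving out each library, the authors' comparison and another length. Within genotypes no 2 libraries agreed within sampling noise (chi-square per degree of freedom of at least 7.47). One list of markers of other cells is not reported here.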

Additional observations from a re-analysis of the deposited data

How the results depend on the processing

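Tnfrsf8 and Tnfrsf18 kept their direction in all settings run, and their calls in the 9 refits on all 6 libraries and in the authors' deposited table. Across the fits without 1 library the adjusted p ran from 0.00983 to 0.115 for Tnfrsf8 and from 0.0365 to 0.121 for Tnfrsf18, and each was called in 2 of 6. For Tnfsf11, not called at 0.0587, the adjusted p was 0.0301 with the replicate block, 0.0294 with array weights and 0.000271 in the authors' deposited table, and 0.0149 to 0.157 without 1 library. The signs of uncalled genes turned in some of these fits: Tnfrsf1a without WT replicate 1 (adjusted p = 0.955, range 0.594 to 0.955), and Cd27 without WT replicate 1 (0.900) and Ikzf4-/- replicate 2 (0.962, range 0.713 to 0.962). The same held for Lta without WT replicate 2 (0.907) and Ikzf4-/- replicate 1 (0.816, range 0.603 to 0.993), Tnf without WT replicate 1 (0.702) and Ikzf4-/- replicate 3 (0.945, range 0.483 to 0.973), Tnfrsf11b without WT replicate 1 (0.859, range 0.685 to 0.884), and Tnfsf9 without WT replicate 1 (0.834) and Ikzf4-/- replicate 2 (0.892, range 0.422 to 0.989). The count of called genes, 263 (2687 at an unadjusted p under 0.05), was 754 with the replicate block, 482 with array weights and 815 in the authors' deposited table, and 20 (without Ikzf4-/- replicate 3) to 523 (without WT replicate 3) without 1 library. Of the 263, 178 were lower and 85 higher (32.3% higher). With equal library totals 154 were lower and 115 higher (42.8%), and the median log2 fold change of all genes was 0.03. Deviations from the genotype means were correlated at 0.145, 0.0122 and 0.142 between libraries of equal number. Between libraries of unequal number the correlations ran from -0.163 to 0.0491. The replicate numbers are not treated as pairs in the main fit. Dividing by the longest transcript exchanged WT places 1 and 2 (Tnfrsf4, Tnfrsf18), 3 and 4 (Tnfsf11, Tnfrsf9), and 6 and 7 (Tnfrsf8, Cd27). The cause of these differences was not tested. Of the alternative values for the 15 other named genes, 207 had the reported direction and call, 15 were no longer called, 8 became called and 7 turned sign. Depth limits Fas most among the members, at 135 reads.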
